A study of Homo sapiens with 6 samples.

Results

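Glucose entry and glycolysis control genes are taken here as 10 named genes: the glucose transporter genes SLC2A1 and SLC2A3, the hexokinase genes HK1 and HK2, the phosphofructokinase gene PFKP, the phosphofructokinase regulators PFKFB3 and PFKFB4, the lactate dehydrogenase gene LDHA, and the monocarboxylate transporter genes SLC16A1 and SLC16A3. They were found by symbol in the authors' table of raw counts, where each of the 10 had 1 row among 32078 named genes. All 10 passed the filter on low counts. The study sequenced polyadenylated RNA of PANC-1, an established human pancreatic carcinoma cell line, in 6 libraries. In the EV group, 3 libraries, the labels give exposure to extracellular vesicles (EVs) shed by cancer-associated fibroblasts, the activated fibroblasts of tumour stroma; in the control group, also 3, they give no treatment. The labels state no vesicle dose, exposure time or fibroblast origin. The protocol text mentions vesicle pretreatment for both groups alike, so group membership here follows each library's own title and treatment label.

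Library totals were 21669757 to 27134375 counts in the EV libraries and 23646239 to 27535620 counts in the control libraries. Levels are given as CPM, the share of a library's reads in ppm after TMM scaling, and a count of 0 allows at most 0.138 CPM in any library. Of 8 epithelial carcinoma markers 5 were tested, of which KRT19, CLDN4 and MUC1 were lower in EV libraries. KRT8 averaged 3382 CPM in EV libraries and 3063 CPM in control libraries, while EPCAM and CDH1 had 0 counts in all 6 libraries. Whether these zeros lie in the cells or in the counting, and the identity of the line, were not tested. The 13 fibroblast markers summed to 366 to 408 CPM in EV libraries and 377 to 414 CPM in control libraries. Of these 13, DCN, LUM, THY1 and POSTN had 0 counts in every library. Of the 5 that were tested, COL1A2 and COL5A1 were higher and COL6A3 and ACTA2 lower in EV libraries. The 6 immune markers summed to at most 1.74 CPM in any library, with PTPRC at 0, and the 4 endothelial markers to at most 5.36 CPM, with KDR at 0. The part of these marker differences in the results that follow was not tested.

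Glucose enters cells through facilitative transporters of the SLC2A family and is held there once a hexokinase has phosphorylated it. Phosphofructokinase then commits the sugar to glycolysis, and the bifunctional PFKFB enzymes set the level of fructose 2,6-bisphosphate, its strongest allosteric activator. Lactate dehydrogenase turns pyruvate into lactate and regenerates NAD+, and the proton-linked transporters encoded by SLC16A1 (MCT1) and SLC16A3 (MCT4) carry lactate across the plasma membrane. Pancreatic carcinoma cells are known for high glucose use and lactate release, and most of these genes are known targets of the hypoxia factor HIF1.

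In EV libraries 6 of the 10 genes were lower than in controls, 1 was higher and 3 did not pass the test (edgeR's quasi-likelihood test, Benjamini-Hochberg adjusted p under 0.05 over all 14670 tested genes). SLC2A3, the high-affinity glucose transporter GLUT3, fell most, to 13.7 ± 1.94 CPM in EV libraries against 45.6 ± 5.28 CPM in control libraries (SD, n = 3 each). HK2, SLC16A3 and PFKFB4 fell by 1.52-fold to 1.59-fold. PFKFB3 and SLC2A1 fell by 0.32 and 0.20 on the log2 scale, and SLC16A1 rose by 1.11-fold. Over all tested genes 40.9% were called, 20.2% higher and 20.7% lower in EV libraries, and the count among the 10 genes is to be read against that share. The median log2 fold change was -0.26 for the 10 genes and -0.01 for all tested genes. The groups' libraries did not overlap for 8 of the 10 genes, and for 50.6% of all tested genes. In these bulk libraries fewer transcripts per cell and fewer cells with the transcript cannot be told apart.

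**Figure D1:**
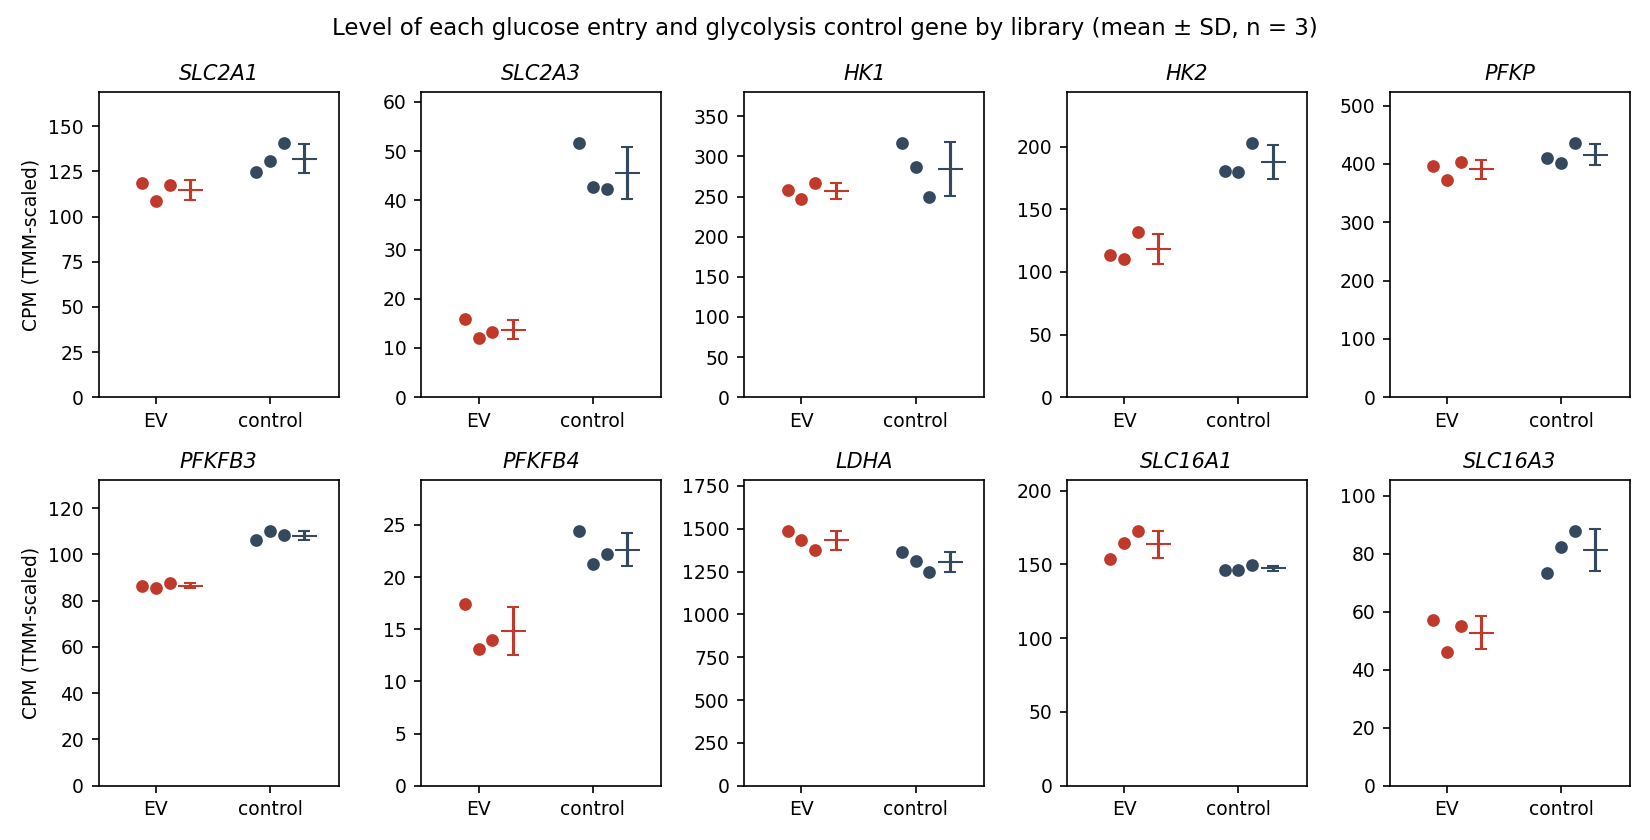
Level of each of the 10 genes in every library, in CPM after TMM scaling on a linear axis from 0, with EV libraries on the left (red) and control libraries on the right (blue); the bar beside the points is the mean ± SD of 3 libraries. SLC2A3 sits at 12.0 to 15.8 CPM in EV libraries, under every control library, while HK1 and PFKP overlap between the groups.

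Promoter sequence is shown as examples for SLC2A1, HK2 and PFKFB4, which fell, and for LDHA, which did not pass. RefSeq windows on GRCh38.p14 were available for 8 of the 10 genes, matched by symbol, all but SLC2A3 and SLC16A1. Each run gives the 250 bases before the most upstream listed start, 5' to 3' on the gene's strand. Capitals mark ACGTG or GCGTG on either strand, the core of the site that hypoxia-inducible factors bind. The windows are chr1:42958869-42959118 (minus strand) for SLC2A1, chr2:74833877-74834126 (plus strand) for HK2, chr3:48556804-48557053 (minus strand) for PFKFB4 and chr11:18394313-18394562 (plus strand) for LDHA.
SLC2A1: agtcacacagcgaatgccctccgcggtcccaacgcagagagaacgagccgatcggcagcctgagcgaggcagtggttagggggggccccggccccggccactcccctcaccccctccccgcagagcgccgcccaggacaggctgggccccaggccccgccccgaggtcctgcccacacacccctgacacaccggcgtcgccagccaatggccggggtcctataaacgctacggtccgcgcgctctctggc
HK2: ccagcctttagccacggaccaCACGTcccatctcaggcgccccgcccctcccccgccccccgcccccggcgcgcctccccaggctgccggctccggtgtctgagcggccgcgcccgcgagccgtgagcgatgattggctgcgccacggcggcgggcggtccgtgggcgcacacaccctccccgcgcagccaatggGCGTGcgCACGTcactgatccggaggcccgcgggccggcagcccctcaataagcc
PFKFB4: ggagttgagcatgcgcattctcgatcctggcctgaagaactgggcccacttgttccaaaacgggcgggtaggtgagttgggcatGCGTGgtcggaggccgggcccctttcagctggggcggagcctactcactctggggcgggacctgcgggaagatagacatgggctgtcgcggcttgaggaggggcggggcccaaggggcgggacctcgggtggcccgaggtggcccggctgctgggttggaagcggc
LDHA: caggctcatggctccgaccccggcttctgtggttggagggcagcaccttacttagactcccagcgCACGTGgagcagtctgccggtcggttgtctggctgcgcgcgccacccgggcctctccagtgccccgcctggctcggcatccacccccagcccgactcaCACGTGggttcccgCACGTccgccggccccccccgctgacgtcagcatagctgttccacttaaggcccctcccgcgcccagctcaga
The SLC2A1 window held 0 such cores, the HK2 window 3, the PFKFB4 window 1 and the LDHA window 3, counting overlapping matches on the 2 strands once. Windows not shown, also at the most upstream start, held 1 core for PFKFB3 and 0 for SLC16A3, HK1 and PFKP. Later listed starts of these genes held cores too. There were up to 3 for SLC16A3 (start 4 of 5) and for PFKP (start 4 of 4). HK1 had 1 at start 6 of 7, and PFKFB3 had 1 at start 2 of 2. Whether these sites bear on the changes was not tested. Of 35116 windows of the same length over all genes, 43.2% held at least 1. The longer palindrome CACGTG, bound by MYC and other E-box factors and overlapping the core wherever it occurs, was found 2 times in the LDHA window and 0 times in the SLC2A1, HK2 and PFKFB4 windows, and in 6.34% of all windows. RefSeq lists a second start for HK2, whose window held 4 cores and 2 CACGTG, and for LDHA, whose window held 1 core and 0 CACGTG, so the order of these genes turns with the start. Which start these cells use is not known from counts per gene.

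At the step of glucose entry, both transporter genes were lower in EV libraries, by unequal amounts. SLC2A3 was at 15.8, 12.0 and 13.3 CPM in EV libraries 1 to 3, against 51.7, 42.7 and 42.4 CPM in control libraries 1 to 3. Every EV library lay far under every control library. The log2 fold change was -1.73 ± 0.10 (SE; edgeR adjusted p = 2.01e-10), a 3.31-fold lower level, and SLC2A3 was the gene with the 65th lowest fold change of 14670. For SLC2A3 the authors' deposited table lists 1.71 on the log2 scale (q = 8.45e-51), with a sign that runs control over EV, as that table's own group means show. Its close paralogue SLC2A14 had 1 count in all, in control library 3, so few reads were assigned to that near-identical copy.

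SLC2A1, the basal glucose transporter GLUT1, was at 119, 108 and 118 CPM in EV libraries, against 125, 131 and 141 CPM in control libraries. The groups did not overlap, but the highest EV library and the lowest control library were close. The log2 fold change was -0.20 ± 0.06 (edgeR adjusted p = 0.0144). Leaving out EV replicate 2 gave an adjusted p of 0.101 and leaving out control replicate 3 one of 0.068, so the call rests on those libraries. Within libraries, SLC2A3 made up 11.8%, 9.94% and 10.2% of the counts of both genes in EV libraries, against 29.3%, 24.6% and 23.1% in control libraries. The log2 ratio of SLC2A3 to SLC2A1 counts, which does not depend on library scaling, was -3.07 ± 0.15 in EV libraries and -1.54 ± 0.24 in control libraries, a difference of -1.53 (two-sided exact permutation p = 0.10, the smallest that 3 against 3 libraries allow; adjusted p = 0.12 over 6 gene pairs).

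The other sugar transporter genes moved in both directions. Of 15 listed transporter genes 10 were tested, of which 4 were lower and 2 higher, beside 20.7% and 20.2% of all tested genes. SLC2A6, a transporter of the family known from lysosomal membranes, rose to 79.9 ± 5.40 CPM in EV libraries against 64.5 ± 2.68 CPM in control libraries (log2 fold change 0.31 ± 0.07, edgeR adjusted p = 0.000842). SLC2A8, SLC2A11 and SLC5A2 had adjusted p-values of 0.0372 to 0.0489 by edgeR, with group means under 10 CPM, and each lost its call without most of the single libraries: it held in 0, 1 and 2 of 6 such fits. SLC2A9 had 0 counts in all libraries.

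**Figure D2:**
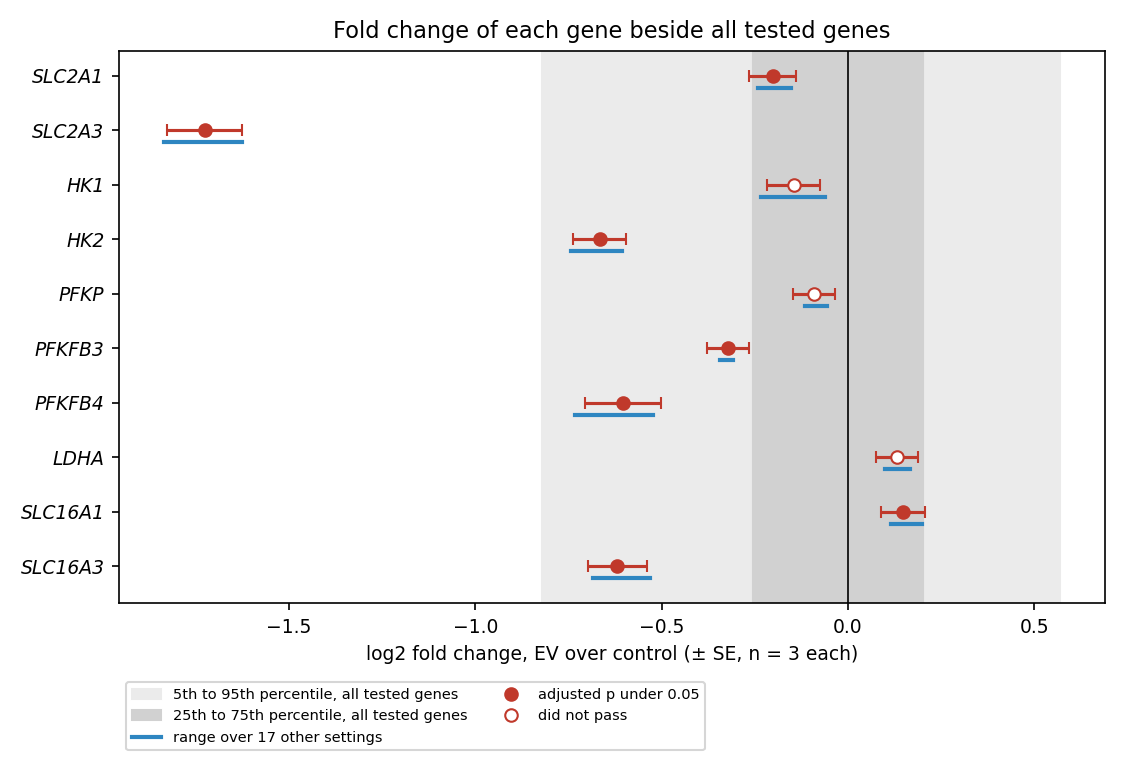
Log2 fold change of each of the 10 genes, EV over control, with its SE (red; filled circles have an adjusted p under 0.05) and the range over 17 other settings (blue line under it). Grey bands give the 25th to 75th (-0.26 to 0.20) and the 5th to 95th (-0.82 to 0.57) percentiles of all 14670 tested genes; only SLC2A3 among the 10 lies outside the wider band.

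Glucose phosphorylation showed a lower HK2 beside an HK1 that did not pass. HK2, the inducible hexokinase of many tumours, was at 113, 110 and 132 CPM in EV libraries, against 180, 180 and 203 CPM in control libraries. All 3 EV libraries lay under all 3 control libraries, with a log2 fold change of -0.67 ± 0.07 (edgeR adjusted p = 6.9e-07). HK1, the widely expressed hexokinase, was at 258, 247 and 266 CPM in EV libraries, against 317, 287 and 249 CPM in control libraries. The groups overlapped through control library 3, and the log2 fold change was -0.15 ± 0.07 (edgeR adjusted p = 0.114). Without control replicate 3 HK1 passed at -0.23 (adjusted p = 0.0076).

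HK2 supplied 30.5%, 30.8% and 33.1% of the counts of HK1 and HK2 together in EV libraries, against 36.3%, 38.5% and 44.9% in control libraries. The log2 ratio differed by -0.53 between the groups (exact permutation p = 0.10; adjusted p = 0.12 over 6 pairs), and by -0.38 without control replicate 3. HKDC1, a further hexokinase family gene, fell to 13.5 ± 0.95 CPM in EV libraries against 29.3 ± 3.31 CPM in control libraries (log2 fold change -1.12 ± 0.09, edgeR adjusted p = 3.43e-08). ADPGK, an ADP-dependent sugar kinase, rose (0.23 ± 0.07, edgeR adjusted p = 0.0126), a call lost without EV replicate 1 (adjusted p = 0.056).

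At the phosphofructokinase step the regulators fell and PFKP did not pass. PFKFB3, whose enzyme has by far the higher kinase than phosphatase activity, was at 86.4, 85.4 and 87.5 CPM in EV libraries, against 106, 110 and 108 CPM in control libraries. Its spread was the smallest relative to its level among the 10 genes in EV libraries, and the groups stood well apart (log2 fold change -0.32 ± 0.06, edgeR adjusted p = 0.000165). PFKFB4, a hypoxia-inducible member of the same family, was at 17.4, 13.1 and 13.9 CPM in EV libraries, against 24.4, 21.3 and 22.2 CPM in control libraries. These groups did not overlap either, and the log2 fold change was -0.60 ± 0.10 (edgeR adjusted p = 0.000119). The PFKFB4 to PFKFB3 ratio overlapped between the groups (log2 difference -0.30, exact permutation p = 0.20; adjusted p = 0.20 over 6 pairs).

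PFKP, the platelet-type phosphofructokinase, was at 396, 373 and 403 CPM in EV libraries, against 410, 401 and 436 CPM in control libraries. The groups overlapped by a narrow margin, with a log2 fold change of -0.09 ± 0.06 (edgeR adjusted p = 0.221). PFKL, the liver-type enzyme that is not among the 10 genes, fell to 386 ± 26.4 CPM in EV libraries against 555 ± 10.3 CPM in control libraries (-0.52 ± 0.06, edgeR adjusted p = 1.42e-06). PFKM, the muscle type, was at 128 ± 7.40 CPM in EV libraries and 120 ± 10.8 CPM in control libraries (0.09 ± 0.07, edgeR adjusted p = 0.303). PFKP therefore made up 49.7%, 51.2% and 50.1% of the counts of PFKP and PFKL in EV libraries, against 42.0%, 42.4% and 44.1% in control libraries. The log2 ratio of PFKP to PFKL was higher by 0.44 in EV libraries, and that of PFKP to PFKM differed by -0.18 (exact permutation p = 0.10 for each; adjusted p = 0.12 over 6 pairs). Of the 7 tested genes of this step 3 were lower and 0 higher, beside 20.7% lower and 20.2% higher over all tested genes. FBP1, which encodes the reverse enzyme fructose-1,6-bisphosphatase, had 0 counts in all libraries.

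**Figure D3:**
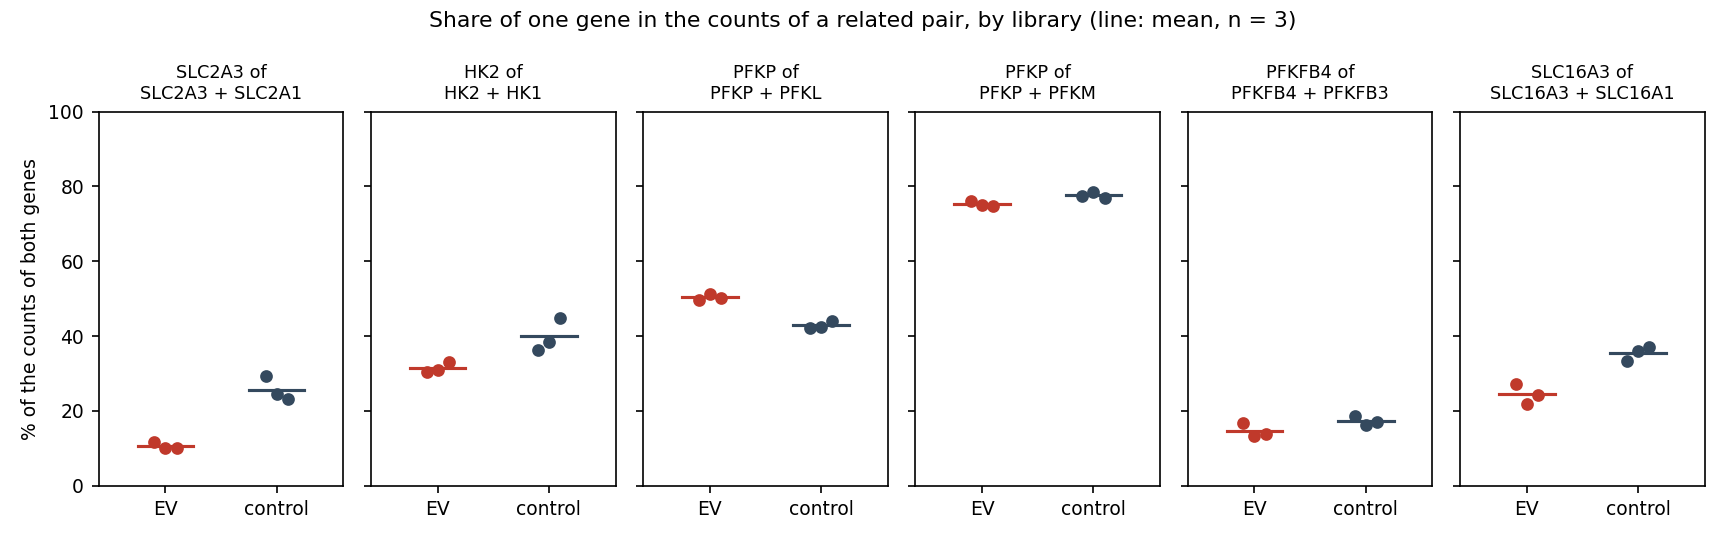
Share of the first-named gene in the summed counts of 2 related genes, in percent, for 6 pairs, with EV libraries (red) left of control libraries (blue); points are libraries and lines are means of 3. SLC2A3 took 9.94% to 11.8% of the SLC2A3 and SLC2A1 counts in EV libraries and 23.1% to 29.3% in control libraries, and the PFKFB4 pair overlaps.

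At the lactate end, both lactate transporter genes were called, in opposite directions. SLC16A3, the low-affinity lactate exporter MCT4 of glycolytic cells, was at 57.2, 46.2 and 54.9 CPM in EV libraries, against 73.3, 82.3 and 87.6 CPM in control libraries. The groups were separate, with a log2 fold change of -0.62 ± 0.08 (edgeR adjusted p = 6.22e-06). SLC16A1, the higher-affinity transporter MCT1, was at 154, 164 and 172 CPM in EV libraries, against 146, 147 and 149 CPM in control libraries. EV library 1 was only a little above the highest control library, and the log2 fold change of 0.15 ± 0.06 was just under the threshold (edgeR adjusted p = 0.049). SLC16A1 kept its call in 6 of 17 other settings and lost it without any single library other than EV replicate 1: the adjusted p was 0.121 without EV replicate 2, 0.182 without EV replicate 3, and 0.0977, 0.095 and 0.0621 without control replicates 1, 2 and 3.

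SLC16A3 contributed 27.1%, 21.95% and 24.2% of the counts of the 2 transporter genes in EV libraries, against 33.4%, 36.0% and 37.0% in control libraries. The log2 ratio of SLC16A3 to SLC16A1 differed by -0.77 (exact permutation p = 0.10; adjusted p = 0.12 over 6 pairs). BSG, which encodes the chaperone basigin that brings both transporters to the membrane, was at 1152 ± 41.9 CPM in EV libraries and 1165 ± 30.1 CPM in control libraries (log2 fold change -0.02 ± 0.06, edgeR adjusted p = 0.845), and its sign turned when single libraries were left out. SLC16A8, the MCT3 gene, was under 1 CPM and lower in EV libraries (-1.25 ± 0.40, edgeR adjusted p = 0.0163), with the call lost without EV replicate 1 (adjusted p = 0.053), EV replicate 2 (adjusted p = 0.0824) or control replicate 1 (adjusted p = 0.088).

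Exons of SLC16A3 and CSNK1D overlap on opposite strands by 482 bases, and those of SLC16A1 and its antisense gene SLC16A1-AS1 by 175 bases, in GENCODE v29. CSNK1D was at -0.03 ± 0.06 (edgeR adjusted p = 0.694), and its counts were up to 301% of those of SLC16A3 in a library. SLC16A1-AS1 fell, with 94, 87 and 103 counts in EV libraries against 192, 213 and 231 counts in control libraries (-1.08 ± 0.13, edgeR adjusted p = 2.28e-06), and its counts were at most 5.67% of those of SLC16A1 in a library. The library preparation keeps the strand, but whether the counting used it is not given, so reads of such overlaps may be shared.

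LDHA, the most abundant of the 10 transcripts, was at 1485, 1437 and 1373 CPM in EV libraries, against 1362, 1310 and 1247 CPM in control libraries. The EV libraries lay above the control libraries without overlap, by a log2 fold change of 0.13 ± 0.06 that did not pass (edgeR adjusted p = 0.0725). Without EV replicate 3 it passed at 0.17 (adjusted p = 0.0388). LDHB, the heart-type subunit, had 0 counts in all 6 libraries, which allows up to 0.138 CPM, so no LDHA to LDHB ratio could be formed; whether that zero lies in the cells or in the counting was not tested. LDHC was at 1.75 CPM in EV libraries and 2.34 CPM in control libraries and did not pass (edgeR adjusted p = 0.0934).

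Levels of different genes were compared as CPM per kilobase of summed exon length in GENCODE v29. That length takes in the exons of all annotated transcripts of a gene, and may exceed that of the transcripts these cells make. The annotation used for counting is not stated, so the order between genes depends on this choice of length. In EV libraries the order from high to low was LDHA at 230 ± 9.003, PFKP at 80.7 ± 3.22, HK1 at 40.8 ± 1.55, SLC16A1 at 30.8 ± 1.75, SLC2A1 at 24.3 ± 1.18, HK2 at 19.5 ± 1.96, PFKFB3 at 14.1 ± 0.17, SLC16A3 at 5.86 ± 0.64, PFKFB4 at 2.43 ± 0.37 and SLC2A3 at 2.22 ± 0.31 CPM per kilobase. In EV libraries the ranges of SLC2A3 and PFKFB4 overlapped. In control libraries HK2, at 30.9 ± 2.18, stood above SLC2A1, at 27.9 ± 1.73, and SLC16A1, at 27.7 ± 0.32 CPM per kilobase, and of these 3 neighbours SLC2A1 overlapped both others. SLC2A3, at 7.39 ± 0.86, was there above PFKFB4, at 3.70 ± 0.26 CPM per kilobase, so the gene that was last in EV libraries ranked ninth of 10 in controls.

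Patterns nearest to that of SLC2A3 were sought among tested genes averaging 10 CPM or more over the libraries, by Euclidean distance between centred log2 CPM profiles over 6 libraries. The 5 nearest were CHAC1, a glutathione-degrading enzyme gene (distance 0.35), BBC3, which encodes the BCL2 family protein PUMA (0.35), JDP2 (0.41), DDIT4, an inhibitor of mTORC1 signalling (0.42), and KDM6B, a histone demethylase gene (0.42). Their log2 fold changes were between -1.78 for DDIT4 and -1.52 for KDM6B. All 5 were lower in EV libraries (edgeR adjusted p of 2.85e-09 or less). Choosing them by likeness to SLC2A3 in these same libraries fixed that in advance, so it is no separate result. The 6 libraries in 2 groups allow no finer statement of likeness.

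Across 11 lists of glucose use, 109 genes in all, 91 were tested, of which 28 were lower and 23 higher in EV libraries, with a median log2 fold change of -0.03. Without EV replicate 2, 19 were lower and 14 higher, in a fit that called 31.7% of all tested genes. Leaving out the 10 genes described above, 22 of 81 were lower and 22 higher, with a median of 0.03. That is 54.3% called, against 40.9% of all tested genes. The 2 shares were not matched for level: over all genes with at least 1 CPM in 3 libraries 45% were called. That 45% comes from a fit with another filter, and the share of the listed genes under it was not computed. Counts per list follow, each to be read against 20.2% higher and 20.7% lower over all tested genes. Differences between lists, or of a list from all tested genes, were not tested.

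Among the other glycolytic enzymes, 4 of 12 tested genes were lower and 2 higher. Without EV replicate 2, 2 were lower and 1 higher, in a fit that called 31.7% of all tested genes. GAPDH was at 5007 ± 151 CPM in EV libraries and 5315 ± 141 CPM in control libraries (-0.09 ± 0.05, edgeR adjusted p = 0.222). PKM, the pyruvate kinase gene, fell to 3041 ± 77.4 CPM in EV libraries against 3482 ± 175 CPM in control libraries (-0.20 ± 0.06, edgeR adjusted p = 0.00979), and lost its call without EV replicate 2 (adjusted p = 0.0598) or control replicate 1 (adjusted p = 0.0572). PGAM1, the phosphoglycerate mutase gene, rose (0.16 ± 0.06, edgeR adjusted p = 0.0282), with the call lost without EV replicate 1 (adjusted p = 0.102), EV replicate 2 (adjusted p = 0.0532) or control replicate 2 (adjusted p = 0.0872). The changes of the less abundant genes were larger. ALDOC, the brain-type aldolase gene, fell to 8.503 ± 1.89 CPM in EV libraries against 15.0 ± 1.63 CPM in control libraries (-0.81 ± 0.13, edgeR adjusted p = 7.5e-05), and BPGM, which makes 2,3-bisphosphoglycerate, rose to 9.09 ± 0.64 CPM in EV libraries against 5.30 ± 0.32 CPM in control libraries (0.78 ± 0.12, edgeR adjusted p = 3.93e-05). ENO2, the neuronal-type enolase gene, fell (-0.28 ± 0.07, edgeR adjusted p = 0.00504).

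**Figure D4:**
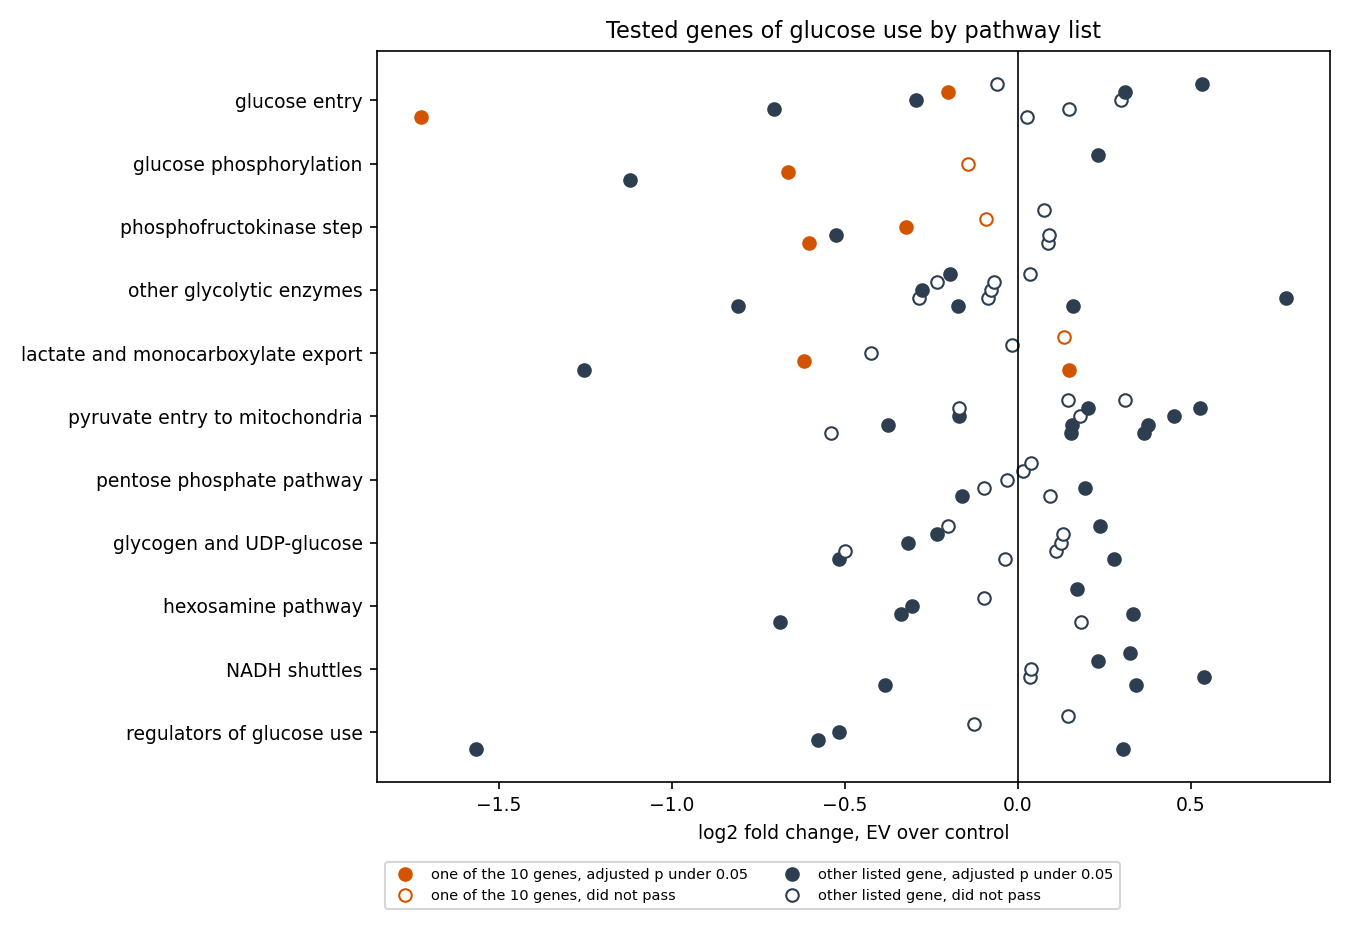
Log2 fold change, EV over control, of each tested gene in 11 lists of glucose use, 1 row per list (vertical position within a row only separates points); orange marks the 10 genes, dark blue the other listed genes, and filled points have an adjusted p under 0.05. In the list of pyruvate entry to mitochondria 7 filled points lie right of 0 and 2 left (4 and 2 without EV replicate 1), and in the phosphofructokinase list 3 lie left and 0 right. Over all tested genes 20.2% were called higher and 20.7% lower, and 34.7% either way without EV replicate 1.

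Genes of pyruvate entry to mitochondria, the route that competes with lactate formation, had 7 of 14 higher and 2 lower (median log2 fold change 0.17). The split moved with the libraries and the scaling: 4 were higher and 2 lower without EV replicate 1, 4 higher and 0 lower without EV replicate 2, and 5 higher and 4 lower without control replicate 2 or with upper-quartile scaling. Calls over all tested genes moved as well, to 34.7% without EV replicate 1, 31.7% without EV replicate 2 and 35.4% without control replicate 2. With upper-quartile scaling 2711 of all tested genes were higher and 3274 lower, against 2965 and 3036 with TMM scaling. MPC1, a subunit of the mitochondrial pyruvate carrier, rose to 17.3 ± 0.96 CPM in EV libraries against 12.0 ± 1.13 CPM in control libraries (0.53 ± 0.10, edgeR adjusted p = 0.000266), and MPC2, the other subunit, rose by 0.38 ± 0.09. PDP2, a phosphatase that activates pyruvate dehydrogenase, rose to 53.8 ± 1.95 CPM in EV libraries against 39.4 ± 0.89 CPM in control libraries (0.45 ± 0.06, edgeR adjusted p = 1.98e-05). PDHX, a structural component of that complex, rose by 0.37 ± 0.06 on the log2 scale. PDK1, the hypoxia-inducible kinase that inhibits it, fell (-0.37 ± 0.11, edgeR adjusted p = 0.0117), a call lost without EV replicate 2 (adjusted p = 0.0627) or EV replicate 3 (adjusted p = 0.0915).

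The NADH shuttles, which compete with lactate dehydrogenase for cytosolic NADH, had 4 of 7 genes higher and 1 lower. GPD1L, a glycerol-3-phosphate dehydrogenase-like gene (0.54 ± 0.08, edgeR adjusted p = 4.13e-05), GPD2, the mitochondrial glycerol-3-phosphate dehydrogenase gene (0.34 ± 0.08, adjusted p = 0.00141), and MDH1, the cytosolic malate dehydrogenase gene (0.32 ± 0.06, adjusted p = 0.00024), rose. GOT1, the cytosolic aspartate aminotransferase gene, fell (-0.38 ± 0.06, edgeR adjusted p = 3.85e-05).

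Of the branches that leave glycolysis, the pentose phosphate pathway had 1 of 7 higher and 1 lower. These were RPIA (0.19 ± 0.06, edgeR adjusted p = 0.0193) and TKT (-0.16 ± 0.06, edgeR adjusted p = 0.0279), ribose and transketolase enzyme genes that each kept the call in 3 of 6 fits with 1 library left out, with adjusted p-values of up to 0.0605 for RPIA and 0.128 for TKT. Glycogen and UDP-glucose genes had 2 of 11 higher and 3 lower. GYS1, the muscle-type glycogen synthase gene, fell to 122 ± 6.16 CPM in EV libraries against 174 ± 5.85 CPM in control libraries (-0.52 ± 0.06, edgeR adjusted p = 1.56e-06). PYGB, a glycogen phosphorylase gene, fell by 0.32 ± 0.06 on the log2 scale, and GYG1, the glycogenin primer gene, rose by 0.28 ± 0.06. GBE1, the branching enzyme gene, fell by 0.23 on the log2 scale (edgeR adjusted p = 0.0119), a call lost without EV replicate 3 (adjusted p = 0.0702) or control replicate 3 (adjusted p = 0.0795). In the hexosamine pathway 3 of 7 were lower and 2 higher. GFPT1, its rate-limiting enzyme gene, fell to 34.3 ± 3.16 CPM in EV libraries against 55.1 ± 4.63 CPM in control libraries (-0.69 ± 0.08, edgeR adjusted p = 1.68e-06). OGA, which removes O-GlcNAc, and UAP1, which makes UDP-GlcNAc, fell by 0.34 ± 0.06 and 0.31 ± 0.06 on the log2 scale, while the GFPT1 paralogue GFPT2 rose (0.33, adjusted p = 0.0297), a call lost without EV replicate 1 (adjusted p = 0.178) or control replicate 1 (adjusted p = 0.0962).

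Among regulators of glucose use, TXNIP, an arrestin that removes glucose transporters from the cell surface, fell to 43.5 ± 2.58 CPM in EV libraries against 129 ± 12.9 CPM in control libraries (-1.57 ± 0.07, edgeR adjusted p = 1.57e-11). TXNIP transcription is known to follow glucose-derived metabolites through MondoA. MYC, which is known to activate several glycolytic genes, fell (-0.52 ± 0.06, edgeR adjusted p = 1.32e-06), and HIF1A, the oxygen-regulated subunit of HIF1, rose at the transcript level (0.30 ± 0.05, edgeR adjusted p = 0.000198). EPAS1, the HIF2 subunit gene, fell to 2.22 ± 0.22 CPM in EV libraries against 3.32 ± 0.68 CPM in control libraries (edgeR adjusted p = 0.0187) and kept the call in 2 of 6 fits with 1 library left out, with adjusted p-values of up to 0.0874. ARRDC4, an arrestin related to TXNIP, had 0 counts in all libraries. HIF1 activity is known to be set mainly by the stability of the protein, which was not measured.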

How the data were processed

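The authors deposited raw counts per gene for 6 libraries, whole numbers for 32453 features, and a table of their own comparison with log2 group means, log2 fold changes, p-values and q-values. Tools listed in the submitters' processing notes are TopHat, RSEM and hg19 with no roles; the gene annotation is not stated. No label says that replicates are separate cultures, so p-values measure the spread between these libraries only.

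The 375 features with no gene name (0.099% to 0.134% of a library's counts) were left out. For the rest, edgeR 4.0.16 (R 4.3.3) gave quasi-likelihood tests after TMM scaling and filterByExpr. The SE is the log2 fold change divided by the square root of F. Paralog ratios had 0.5 added to each count. Floors (3 counts) cover counting error only. Promoters came from RefSeq (GRCh38.p14), gene lengths and overlaps from GENCODE v29 (GRCh38).

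The genes, lists and pairs were chosen with earlier results of these data known. Genes named from a list were its up to 4 called genes with the lowest adjusted p, fixed related genes, and genes at 0 counts. SLC16A1-AS1, CSNK1D and LDHC were named after their values were seen. On simulated counts for 14670 genes the test called 44%, 84%, 84% and 96% of 50 genes each changed 1.25-, 1.5-, 2- and 4-fold, and 12 of 14470 unchanged genes. Far fewer genes were changed there than the 40.9% called in these libraries, so those rates need not hold here. Alternatives were other scalings, filters and thresholds, DESeq2 1.42.0, limma-voom from limma 3.58.1, a replicate block and each library left out.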

Additional observations from a re-analysis of the deposited data

How the results depend on the processing

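All 10 genes kept their direction in 17 other settings, and SLC2A3, HK2, PFKFB4 and SLC16A3 kept their call in each. The lower count stayed at 6 except for 4 against a fold change of 1.2 (SLC2A1 at -0.20 and PFKFB3 at -0.32 lost, adjusted p = 0.999995 and 0.215), 5 at adjusted p under 0.01 (SLC2A1 lost, -0.20), and 5 without EV replicate 2. In these settings 14.6%, 27.9% and 31.7% of all tested genes were called, in that order, against 40.9% in the main fit. Without control replicate 3 the 6 were not the same genes. There SLC2A1 lost its call (edgeR adjusted p = 0.068) and HK1 gained one (edgeR adjusted p = 0.0076). The higher count of 1, SLC16A1, became 0 with upper-quartile scaling (0.13), with at least 1 CPM in 3 libraries (0.14), with the replicate block (0.15), against a fold change of 1.2 (0.15) and at adjusted p under 0.01 (0.15). It became 2 with library totals alone, DESeq2 and limma-voom, where LDHA passed (0.14, 0.14 and 0.13). With no count filter (5979 of 27396 genes called) LDHA passed (0.15) in place of SLC16A1 (0.16). Leaving out 1 library gave 0 to 1 higher genes, and log2 fold changes of -0.24 to -0.15 for SLC2A1, 0.12 to 0.20 for SLC16A1, 0.10 to 0.17 for LDHA and -0.23 to -0.061 for HK1. Over the 11 lists, higher and lower counts were 4 and 12 against a fold change of 1.2, and 12 and 18 at adjusted p under 0.01; leaving out 1 library gave 14 to 22 higher. Over all genes, 892 were higher and 1253 lower against a fold change of 1.2, and 2036 and 2057 at adjusted p under 0.01. With 1 library left out, 31.7% (without EV replicate 2) to 37.8% (without control replicate 3) of all tested genes were called. BSG ranged between -0.034 and 0.014 with 1 library left out, turning sign without EV replicate 2 (0.014) and without control replicate 2 (0.0030). The cause of these changes was not tested beyond the stricter thresholds themselves. Same-numbered libraries did not deviate together (correlations of -0.04, -0.02 and -0.03), so the numbers were not taken to pair them; with the replicate block 5743 genes were called against 6001. For the paralog ratios pairing leaves the mean difference as it is by construction, and its exact sign-flip p of 0.25 is the smallest 3 pairs allow, so it says nothing of their stability. Depth limits genes under about 1 CPM.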
